A study of Zea mays with 17 samples.

Results

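Tapetal cells (TAP) were compared with the other somatic cells (OSC) of maize anthers that were 1.5 mm long. The comparison rests on 4 of the 17 libraries of the series, chosen by their titles: replicates 1 and 2 of TAP and replicates 1 and 2 of OSC at 1.5 mm. All plants were Zea mays of the W23 bz2 inbred line, labelled wild type, and were raised in a greenhouse. Anthers were taken from tassels and sorted by their measured length. Both cell kinds came from laser capture, in which chosen cells are cut from a tissue section. The labels name the OSC only as other somatic cells of the anther and do not list their layers, and they do not say how many plants or anthers were pooled in a library. The series also holds captured meiocytes (ME) at 1.5 mm, TAP, ME and OSC at 2.0 mm, and fixed whole anthers (FA) at both lengths, all of the same genotype. The title of the series concerns phased small RNAs that pass from tapetal to meiotic cells.

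The tapetum is the innermost layer of the anther wall. It lies against the meiocytes, feeds them by secretion and later supplies material for the pollen wall. Tapetal cells of many plants are rich in mitochondria, and in maize and other crops some forms of cytoplasmic male sterility come from altered mitochondrial reading frames that harm this layer. The plant mitochondrial genome encodes a few subunits of the respiratory complexes and of the ATP synthase, factors for cytochrome c maturation, part of the mitochondrial ribosome, and ribosomal and transfer RNAs. All other mitochondrial proteins come from nuclear genes.

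RNA was read at transcript 3' ends with CEL-seq2, which primes on poly(A) tails. Levels are given as CPM, counts relative to the library's total. Total counts were 495100 and 501897 in the TAP libraries and 815385 and 280760 in the OSC libraries, and the whole series ranged from 280760 to 4428287. A count of 0 in both libraries of a group allows up to 3 counts over the group, which is 3.01 CPM in TAP and 2.74 CPM in OSC, for counting error alone. Where a fold change is given below as at least a value, the mean CPM of the higher group was divided by this limit. Such a value allows for counting error in the group at 0 and not for the spread between libraries. Replicates correlated across genes with Pearson's r of 0.805 in TAP and 0.742 in OSC (log2 of CPM plus 1; genes are not independent replicates). Neither pair was alike to within counting noise, with a chi-square per degree of freedom of 6.42 in TAP and 5.71 in OSC. Nothing in the labels says that replicates came from separate plants, so p-values measure only the spread between libraries. That spread was estimated over all 12 captured libraries of both lengths, not over these 4 alone. Lists of known tapetum, meiocyte and epidermis genes fixed by symbol could not be used, because 0 of the 44146 nuclear rows had a name in the tables used here. Nuclear genes are therefore described by counts, levels and their behaviour in the other libraries, and at most 2 identifiers are printed for each direction, without names.

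TAP libraries held counts for fewer genes than OSC libraries of the same depth. When 250000 counts were drawn from each library, 14162 ± 605 genes had a count in TAP and 16186 ± 173 in OSC (mean ± SD, n = 2 each), a difference of -2024 genes. Both TAP libraries lay below both OSC libraries. With a minimum of 3 counts the means were 9861 genes in TAP and 11283 in OSC, and with 100000 counts drawn they were 11478 and 13101 (n = 2 each). An exact permutation test of 2 against 2 cannot give a p below 0.333, so the difference has no test at the 0.05 level.

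Across the genome, more genes were lower in TAP than higher. Of 16940 genes tested with edgeR's quasi-likelihood test, 484 (2.86%) had a Benjamini-Hochberg adjusted p-value under 0.05. Of these, 104 (0.614%) were higher in TAP and 380 (2.24%) were lower, and all 484 were nuclear genes. Before adjustment, 1001 genes (5.91%) were higher and 2074 (12.2%) lower at a p-value under 0.05. The median log2 fold change of all 16940 genes was -0.10 with TMM scaling and -0.26 with RLE factors, so directions are relative to a shift of that size. In bulk samples, fewer cells of a kind and less RNA per cell cannot be told apart.

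The number of genes called fell when 1 of the 4 libraries was left out. Each such fit has 1 library in that group, so dependence on a particular library cannot be told apart from lost replication. Without 1 of the 4 libraries, between 1 and 60 genes were called, with 42 without TAP replicate 1, 1 without TAP replicate 2, 30 without OSC replicate 1 and 60 without OSC replicate 2. All 484 genes kept the sign of their fold change in each of these fits. With the 4 libraries fitted alone, 2184 genes were called, of which 35.8% were higher in TAP, against 21.5% in the fit of all 12 captured libraries.

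Calls were made mostly among genes with high counts. The 4235 genes with the highest mean CPM over the 4 libraries held 359 of the calls, which is 8.48% of them. The next 4235 genes held 110 (2.60%), the next 14 (0.331%) and the 4235 with the lowest means 1 (0.0236%). The boundaries between these groups of genes lay at mean levels of about 8.01, 19.5 and 46.8 CPM.

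**Figure D1:**
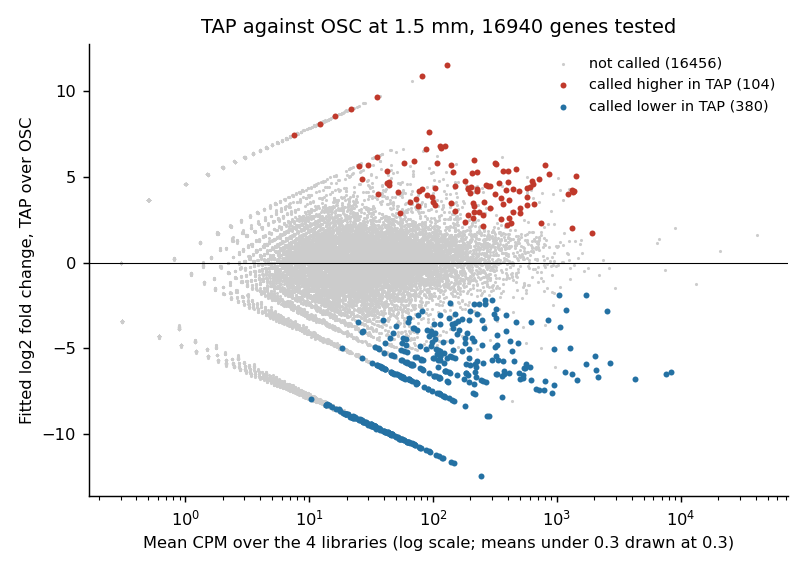
Fitted log2 fold change of TAP over OSC at 1.5 mm (vertical axis) against the mean level over the 4 libraries in CPM (horizontal log axis), one point per gene. Red points are the 104 genes called higher in TAP, blue points the 380 called lower, and grey points the 16456 not called. Most called genes lie in the right part of the plot, and blue points reach larger fold changes than red ones.

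The 104 genes higher in TAP had a median level of 393 CPM in TAP and 22.6 CPM in OSC. In OSC, 7 of them (6.73%) had 0 counts in both libraries, against 5.54% of all genes tested, and 21 had 3 counts or fewer. Their median log2 fold change was 4.31, or 4.24 with genes at 0 counts in both OSC libraries set to their bound. The quartiles of the bounded values were 3.40 and 5.06. These values come from the contrast that chose the genes and are given as a description. Together the 104 genes took 6.21% to 6.35% of all counts in the TAP libraries and 0.495% to 0.594% in the OSC libraries. In libraries that did not enter their choice, they took 2.86% to 3.11% of counts in the 3 FA libraries at 1.5 mm. The ME libraries at 1.5 mm, with which the spread was estimated, gave 3.39% and 3.48%.

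Zm00001d044040 had 218 and 303 CPM in the TAP libraries (108 and 152 counts) and 0 counts in both OSC libraries. The gene was thus at least 95.2-fold higher in TAP (edgeR adjusted p-value of 0.0134). It held 34.1, 57.4 and 57.0 CPM in the FA libraries at 1.5 mm, between TAP and OSC, and 0.429 and 0 CPM in ME. At 2.0 mm it was nearly gone from TAP too, with 0.376 and 0 CPM in TAP and 0 counts in both OSC libraries.

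Zm00001d035162 had 131 and 191 CPM in TAP (65 and 96 counts) and 0 counts in both OSC libraries. This is at least 58.9-fold higher in TAP (edgeR adjusted p-value of 0.0418). The FA libraries at 1.5 mm held 30.2, 55.9 and 29.9 CPM, and both ME libraries held 0 counts. Leaving out any 1 of the 4 libraries ended the calls of both genes, with edgeR adjusted p-values between 0.0966 and 0.171 for Zm00001d044040 and between 0.179 and 0.297 for Zm00001d035162. Their fold changes stayed positive in each of these fits.

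The 380 genes lower in TAP were near the detection limit there. Their median level was 2.01 CPM in TAP, below what 3 counts over both libraries stand for, and 156 CPM in OSC. In TAP, 119 of them (31.3%) had 0 counts in both libraries, against 12.2% of all genes tested, and 230 had 3 counts or fewer. The median log2 fold change was -6.54, and -5.28 with the 119 genes at 0 counts in both TAP libraries set to their bound. Together they took 0.475% to 0.719% of all counts in TAP and 17.7% to 18.1% in OSC. FA libraries at 1.5 mm gave them 6.52% to 7.31% of counts. In ME they took 2.36% to 2.65%, although their median level there was 0.554 CPM.

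Zm00001d009146 had 0 counts in both TAP libraries and 332 and 256 CPM in OSC (271 and 72 counts). It was at least 97.8-fold lower in TAP (edgeR adjusted p-value of 0.00234). Its FA libraries at 1.5 mm held 33.4, 27.9 and 25.0 CPM, and both ME libraries held 0 counts. The same direction was found at 2.0 mm, with 2.63 and 5.26 CPM in TAP and 761 and 767 CPM in OSC (log2 fold change of -7.81, edgeR adjusted p-value of 0.00422 in the 2.0 mm libraries alone). The call at 1.5 mm was lost without TAP replicate 2, with an edgeR adjusted p-value of 0.0682, and held without each of the other libraries.

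Zm00001d028474 also had 0 counts in both TAP libraries at 1.5 mm, against 520 and 456 CPM in OSC (424 and 128 counts). It was at least 162-fold lower in TAP, with an edgeR adjusted p-value of 0.0244, which lay between 0.103 and 0.229 when any 1 library was left out. FA libraries at 1.5 mm held 222, 216 and 167 CPM, and the ME libraries 0.429 and 41.1 CPM. Unlike the gene before it, this one had a higher level in TAP at 2.0 mm, with 2340 and 2234 CPM in TAP and 606 and 521 CPM in OSC, but it was not called there (log2 fold change of 1.78 ± 0.90 SE, edgeR adjusted p-value of 0.225). The test of the difference between lengths gave a log2 value of 14.23 for 2.0 mm minus 1.5 mm (edgeR adjusted p-value of 0.0449, and 0.0601 with the replicate number as a block, which ended the call), which depends on the prior count because TAP was at 0. That adjusted p-value lay between 0.208 and 0.264 in edgeR fits without 1 of the 4 libraries.

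Whole anthers lay between the captured cells for most called genes. The mean FA level at 1.5 mm was between the TAP and OSC means for 84 of the 104 genes higher in TAP, above both for 14 and below both for 6. Among the 380 genes lower in TAP it was between them for 330, above both for 44 and below both for 6. Over all 16940 genes the FA mean was between them for 41.6%. Called genes have widely separated TAP and OSC means, so a larger share between them follows in part from their choice. All 3 FA libraries held counts for 103 of the 104 and for 377 of the 380.

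The called genes were then looked up at 2.0 mm, in a fit of the 6 captured libraries of that length alone. That fit shares no library with the fold changes at 1.5 mm. It is not separate from the calls at 1.5 mm, whose gene filter and spread were estimated with the 2.0 mm libraries included. Of the 104 genes, 92 were tested there, 75 with a positive and 17 with a negative log2 fold change of TAP over OSC, and the median was 2.04. By edgeR's quasi-likelihood test 39 of the 92 (42.4%) were called higher in TAP and 3 lower. Of the 380 genes, 378 were tested, 365 with a negative and 13 with a positive value, with a median of -7.27. Here 309 (81.7%) were called lower in TAP and 2 higher. The background of this fit, over the 15315 genes it shared with the fit at 1.5 mm, was 515 called higher (3.36%) and 2296 called lower (15%), with a median of -0.19. Genes called at 1.5 mm have higher counts than the average gene, and calls are more frequent among such genes. A small spread at 2.0 mm also favours a call at either length. The shares called at 2.0 mm are therefore not an independent check of the calls at 1.5 mm.

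**Figure D2:**
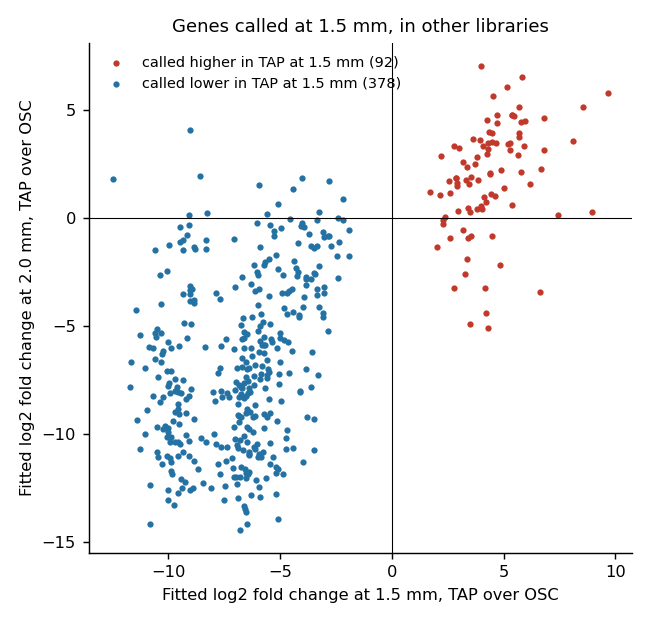
Fitted log2 fold change of TAP over OSC at 2.0 mm (vertical axis, 2.0 mm libraries alone) against that at 1.5 mm (horizontal axis), one point per gene called at 1.5 mm and tested at both lengths. Of the 92 red points, called higher in TAP at 1.5 mm, 75 lie above the horizontal line at 0, and of the 378 blue points, called lower, 365 lie below it.

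The median level of the 104 genes at 2.0 mm was 97.7 CPM in TAP and 17.1 CPM in OSC. In the same libraries the genes took 5.61% to 6.39% of counts in TAP and 0.714% to 0.824% in OSC. For the 380 genes the medians at 2.0 mm were 2.04 CPM in TAP and 206 CPM in OSC, with 1.83% to 1.94% of counts in TAP and 15.8% to 18.3% in OSC. The groups did not overlap in either share.

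With no marker names to hand, sets of genes from the 2.0 mm libraries served to describe which cells the 1.5 mm libraries resembled. A gene entered the TAP-high, OSC-high or ME-high set when it was called higher in that cell kind than in both others at 2.0 mm. The 277 TAP-high genes took 4.79% and 5.34% of counts in TAP at 1.5 mm and 1.87% and 2.01% in OSC. In TAP at 2.0 mm, which chose them, they took 14.8% and 15.7%. The 1863 OSC-high genes took 3.35% and 2.97% of counts in TAP at 1.5 mm and 21.8% and 21.1% in OSC. The TAP label thus went with higher TAP-high and lower OSC-high shares in both replicates.

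Gene by gene, the TAP-high set had a median log2 fold change of 1.19 at 1.5 mm, with 26 of 275 genes tested called higher in TAP and 1 lower. Both TAP libraries lay above both OSC libraries for 157 of the 275 and below for 25, against a background of 23.9% above and 29.5% below over all genes. The OSC-high set had a median of -4.61, with 1 of 1725 called higher and 272 lower. Its median was -2.59 with genes at 0 counts in both libraries of a group set to their bound. That value leaves out 161 genes too low in the other group for a bound. In that set 79 genes lay above and 1213 below. Seen from the calls, 26 of the 104 genes higher in TAP were TAP-high at 2.0 mm and 1 was OSC-high, while of the 380 genes lower in TAP 272 were OSC-high and 1 was TAP-high. That is 25.0% TAP-high among the 104 and 71.6% OSC-high among the 380, and over all 16940 genes 1.62% were TAP-high and 10.2% OSC-high. The spread of the 2.0 mm libraries entered both the sets and the calls at 1.5 mm, so these overlaps are not an independent check.

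Genes high in meiocytes also took a larger share of counts in TAP than in OSC at 1.5 mm. The share of the 914 ME-high genes was 12.4% and 12.1% in the TAP libraries and 5.73% and 5.06% in the OSC libraries. The ME libraries of that length gave 33.5% and 38.9%. At 2.0 mm their share was 3.52% and 3.14% in TAP and 2.85% and 3.02% in OSC. The ME-high set holds mitochondrial and plastid rows too, so these shares are not of nuclear meiocyte genes alone. At 1.5 mm its mitochondrial row rrn26 by itself had 56655 and 66024 CPM in TAP and 23363 and 17357 CPM in OSC. The part of organelle rows in the difference between TAP and OSC was not tested. Of 901 ME-high genes tested at 1.5 mm, 21 (2.33%) were called higher in TAP and 5 (0.555%) lower, against 0.614% and 2.24% of all genes. Both TAP libraries lay above both OSC libraries for 251 (27.9%, background 23.9%) and below for 104 (11.5%, background 29.5%). The median log2 fold change was 0.39. That median was 0.00 without TAP replicate 1. These 21 genes are 20.2% of the 104 genes higher in TAP, while ME-high genes were 5.32% of all genes tested. The limit from shared spread, given above for the TAP-high and OSC-high sets, holds for this overlap too. Meiocytes touch the tapetum, and the part of their RNA in the TAP values was not tested.

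**Figure D3:**
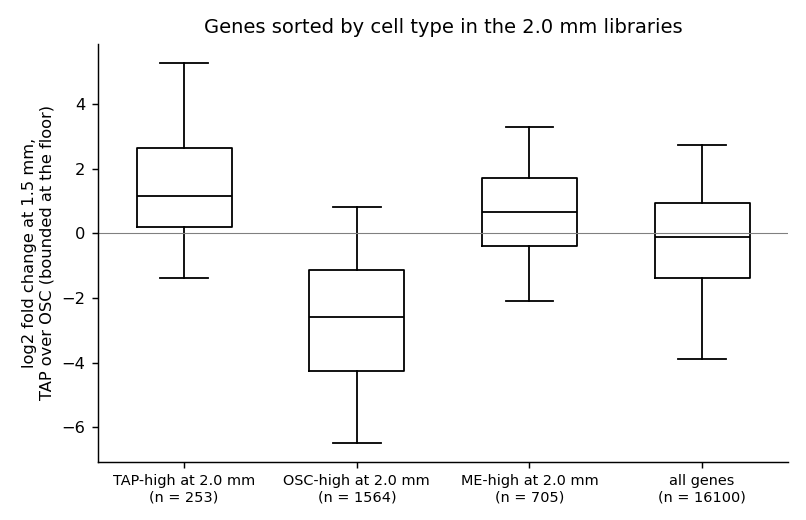
log2 fold change of TAP over OSC at 1.5 mm (vertical axis) for genes called highest in TAP, OSC or ME at 2.0 mm and for all genes. Genes at 0 counts in both libraries of a group are set to their bound. Those too low in the other group for a bound are left out: 22 TAP-high, 161 OSC-high, 196 ME-high and 840 of all genes. Boxes span the quartiles with the median as a line, and whiskers the 5th to 95th percentile. The OSC-high box lies below 0, the TAP-high median at 1.16 and the ME-high median at 0.66 lie above the median of all genes at -0.12.

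Mitochondrial genes were the named genes with the most uniform direction. At 1.5 mm they took 9.83% and 10.7% of counts in the TAP libraries and 4.06% and 3.56% in OSC. The means were 10.2 ± 0.590% and 3.81 ± 0.352% (SD, n = 2 each), and the groups did not overlap. At 2.0 mm TAP was the lower, with shares of 0.934% and 0.956% in TAP and 1.10% and 1.31% in OSC. The ME libraries at 1.5 mm had 7.40% and 3.53%, and the FA libraries had 1.29%, 1.83% and 1.20%, so whole anthers lay below both captured cell kinds and not between them. The part of capture or of the state of the RNA in these shares was not tested. Without ribosomal and transfer RNA rows, the share was 2.71% in TAP and 1.36% in OSC, so protein genes and reading frames were also higher as a share, by 2.00 times. For each share an exact two-sided permutation test gave p = 0.333, the smallest that 2 against 2 allows. Poly(A) tails in plant organelles are known to mark RNAs for decay, and a method that primes on them need not count organelle transcripts in proportion to their amount.

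None of the 112 mitochondrial rows tested was called at 1.5 mm by edgeR's quasi-likelihood test. Before adjustment 25 had a p-value under 0.05, all higher in TAP. Their median log2 fold change was 1.27, against -0.10 for all genes, with 91 positive and 21 negative. Both TAP libraries lay above both OSC libraries for 71 of the 112 (63.4%, background 23.9%) and below for 2 (1.79%, background 29.5%). With DESeq2, 10 of these 112 rows were called, all higher in TAP. Over all genes DESeq2 called 1319 of 16940, 336 of them higher. With only the 4 libraries fitted, 25 of 69 mitochondrial rows tested were called, again all higher. That fit called 2184 of all 8987 genes, 781 of them higher. The median of the mitochondrial rows ran from 1.11 with DESeq2 to 1.51 without OSC replicate 2 and kept its sign in every fit.

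Complex I, the NADH dehydrogenase that feeds electrons into the respiratory chain, was represented by 6 mitochondrial rows named nad. Of these 4 were tested, with a median log2 fold change of 1.96. nad3, a membrane subunit, had 489 and 418 CPM in TAP and 45.4 and 85.5 CPM in OSC. Its log2 fold change was 2.85 ± 0.76 SE (edgeR adjusted p-value of 0.0619). nad4, another membrane subunit, had 2099 and 1419 CPM in TAP and 581 and 488 CPM in OSC (log2 fold change of 1.72 ± 0.49 SE, edgeR adjusted p-value of 0.0790). For nad9, a subunit of the peripheral arm, the levels were 234 and 251 CPM in TAP and 47.8 and 60.5 CPM in OSC (log2 fold change of 2.20). In all 4 tested genes of the complex both TAP libraries lay above both OSC libraries (background 23.9%).

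The terminal oxidase, complex IV, did not show one direction. cox1, the catalytic subunit, had 642 and 719 CPM in TAP and 267 and 324 CPM in OSC, a log2 fold change of 1.24 (edgeR adjusted p-value of 0.211), while ME had 1784 and 865 CPM. cox3 had 885 and 976 CPM in TAP, and its OSC libraries, at 407 and 1799 CPM, lay on either side. cox2 had only 7 and 3 counts in TAP and 2 and 23 counts in OSC. cob, the cytochrome b of complex III, had 8 and 1 counts in TAP and 0 and 6 counts in OSC. For cox3, cox2 and cob the second OSC library had the highest CPM of the 4, and the median of complex IV was -0.17 with it and 1.26 without it.

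Among ATP synthase genes, 5 of 6 were tested and all 5 had positive values, with a median log2 fold change of 0.90. atp6, which forms part of the proton channel, had 487 and 478 CPM in TAP and 179 and 121 CPM in OSC (log2 fold change of 1.68, edgeR adjusted p-value of 0.147). atp8 overlapped, with 218 and 187 CPM in TAP and 71.1 and 199 CPM in OSC, and atp4 was at 113 and 185 CPM in TAP and 99.3 and 96.2 CPM in OSC.

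Cytochrome c maturation genes, whose products attach heme to cytochrome c, had a median of 1.45 over 4 genes. ccmC had 105 and 116 CPM in TAP and 22.1 and 3.56 CPM in OSC (log2 fold change of 2.92 ± 0.82 SE, edgeR adjusted p-value of 0.0738), where the lower OSC value is 1 count. Its log2 fold change was 4.96 without OSC replicate 1 and 2.22 without OSC replicate 2. ccmFN had 741 and 998 CPM in TAP and 358 and 399 CPM in OSC, with a log2 fold change of 1.23 (edgeR adjusted p-value of 0.198). ccmFC overlapped, at 196 and 126 CPM in TAP and 139 and 153 CPM in OSC, and its fold change of 0.16 turned to -0.01 with DESeq2. mat-r, which encodes a maturase for intron splicing, had 143 and 112 CPM in TAP and 110 and 53.4 CPM in OSC, with a log2 fold change of 0.61.

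The mitochondrial ribosome stood on the same side in its RNA and its proteins. The large ribosomal RNA rrn26 had 56655 and 66024 CPM in TAP and 23363 and 17357 CPM in OSC (log2 fold change of 1.61 ± 0.41 SE, edgeR adjusted p-value of 0.0521). The small ribosomal RNA rrn18 had 14086 and 14467 CPM in TAP and 4783 and 2322 CPM in OSC (log2 fold change of 2.00 ± 0.51 SE, edgeR adjusted p-value of 0.0527). Without OSC replicate 1 the value for rrn18 was 2.66, and without OSC replicate 2 it was 1.48. With the replicate number as a block, rrn18 was called, with an edgeR adjusted p-value of 0.0455. rrn5 had 982 and 835 CPM in TAP and 277 and 267 CPM in OSC, with an edgeR adjusted p-value of 0.112, and 2789 and 1883 CPM in ME. All 11 tested genes for ribosomal proteins had positive fold changes, with a median of 1.43. In 10 of them (90.9%, background 23.9%) both TAP libraries lay above both OSC libraries. Among them rps1 had 8940 and 8478 CPM in TAP and 4383 and 3694 CPM in OSC (edgeR adjusted p-value of 0.250), rps12 had 967 and 1303 CPM in TAP and 315 and 360 CPM in OSC, and rps4 had 469 and 396 CPM in TAP and 159 and 153 CPM in OSC.

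Transfer RNAs of the mitochondrion were less uniform. Their 11 tested rows had a median log2 fold change of 1.27, and 0.60 with rows at 0 counts in both libraries of a group set to their bound. trnL-b had 117 and 128 CPM in TAP and 9.81 and 14.2 CPM in OSC, a log2 fold change of 3.40 with an edgeR adjusted p-value of 0.0820. trnR-a had 503 and 323 CPM in TAP and 396 and 499 CPM in OSC, so the groups overlapped. The 68 tested reading frames named orf had a median of 1.25. In both libraries 40 lay above (58.8%, background 23.9%) and 2 below (2.94%, background 29.5%).

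**Figure D4:**
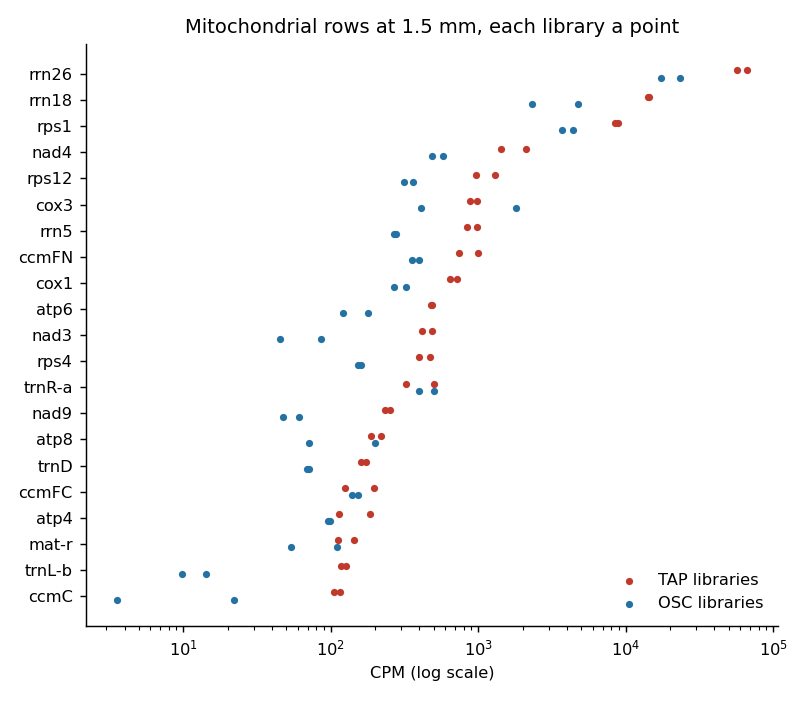
Levels of named mitochondrial rows at 1.5 mm in CPM (horizontal log axis), one row per gene, with a red point for each TAP library and a blue point for each OSC library. The genes cob and cox2, with few counts, are left out. Red points lie right of both blue points for most rows, while atp8, cox3, ccmFC and trnR-a overlap.

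Plastid genes did not share this pattern. They took 0.314 ± 0.0369% of counts in TAP and 0.399 ± 0.0214% in OSC (SD, n = 2 each; exact permutation p = 0.333), a ratio of 0.787. None of the 54 plastid rows tested was called by edgeR's quasi-likelihood test, 0 had an unadjusted p-value under 0.05, and DESeq2 called 0. With only the 4 libraries fitted, 2 of 30 plastid rows were called, both lower in TAP. That fit called 2184 of all 8987 genes, 1403 of them lower, so plastid rows did not stand out. The median log2 fold change of the 54 rows was -0.36, with 10 rows above and 15 below in both libraries (18.5% and 27.8%, close to the background of 23.9% and 29.5%). Within the plastid the ribosomal proteins had a median of 0.36 over 14 genes, 6 of them above OSC in both libraries and 0 below. Genes for photosynthesis were near the detection limit: rbcL, the large subunit of Rubisco, had 4.04 and 3.98 CPM in TAP and 8.58 and 10.7 CPM in OSC, and 1 of 15 photosystem II rows was tested.

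The NDH complex, which passes electrons around photosystem I, had a median of -0.25 over 8 genes. ndhC had 170 and 155 CPM in TAP and 346 and 292 CPM in OSC, and ndhD had 170 and 149 CPM in TAP and 251 and 260 CPM in OSC, without overlap in either. Their log2 fold changes were -0.96 with a standard error of 0.70 for ndhC and -0.66 with a standard error of 0.85 for ndhD. All 5 tested plastid ATP synthase genes had negative values, with a median of -0.30, and atpF overlapped between groups at 162 and 139 CPM in TAP and 217 and 135 CPM in OSC. rpoC2, a subunit of the plastid RNA polymerase, had 99.0 and 75.7 CPM in TAP and 113 and 189 CPM in OSC. The plastid row for rps7 that had most counts held 353 and 305 CPM in TAP and 281 and 349 CPM in OSC, and its reads may be divided with a second row of the same symbol.

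Non-coding RNA rows took 2.43 ± 0.216% of counts in TAP and 1.16 ± 0.0892% in OSC (SD, n = 2 each; exact permutation p = 0.333). The FA libraries, with 0.235%, 0.156% and 0.197%, lay below both. Of 98 tested, 0 were called by edgeR's quasi-likelihood test and 2, both higher in TAP, by DESeq2. Over all genes DESeq2 called 336 of 16940 higher, so these 2 calls did not stand out. Without adjustment 7 of the 98 rows were higher and 1 lower at an edgeR p-value under 0.05, where all genes gave 5.91% and 12.2%. In both libraries 51 lay above (52.0%, background 23.9%) and 9 below (9.18%, background 29.5%). Their median log2 fold change was 0.72. At 2.0 mm the shares of counts in non-coding rows overlapped, with 0.251% and 0.359% in TAP and 0.218% and 0.357% in OSC. The microRNA gene rows, 154 in all and with 11 for the MIR2275 and MIR2118 families that trigger phased small RNAs in grasses, had 0 counts in each of the 17 libraries, so these data give no level for them in either cell kind.

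Whether the difference between TAP and OSC was the same at both lengths was tested directly, as the log2 fold change at 2.0 mm minus that at 1.5 mm. By edgeR's quasi-likelihood test 137 genes (0.809%) passed an adjusted p-value of 0.05, 20 (0.118%) with a more positive value at 2.0 mm and 117 (0.691%) with a more negative one. Of the 104 genes higher in TAP at 1.5 mm, 13 were among them, and of the 380 lower, 21. OSC-high genes of 2.0 mm made up 84 of the 137, all with the more negative value, but 2.0 mm libraries chose them. The count was 3 without TAP replicate 1, 15 without TAP replicate 2, and 0 without OSC replicate 1 or without OSC replicate 2. In those fits with 0 calls, 1624 and 1517 genes had an unadjusted p-value under 0.05. DESeq2, on the 12 captured libraries with none left out, called 635.

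Mitochondrial rows gave 5 of these calls among 112, 4 with the more negative value at 2.0 mm. nad4 had 79.0 and 68.1 CPM in TAP and 351 and 387 CPM in OSC at 2.0 mm, so that the direction at 2.0 mm was opposite to that at 1.5 mm, where TAP was the higher. Its difference between lengths was -4.27 ± 0.71 SE on the log2 scale, with an edgeR adjusted p-value of 0.0248. ccmC had 0.752 and 0.929 CPM in TAP, only 2 and 3 counts, and 7.97 and 15.6 CPM in OSC at 2.0 mm. Its difference from 1.5 mm was -6.82 ± 1.21 SE (edgeR adjusted p-value of 0.0286). rrn5, the smallest ribosomal RNA, had 36.1 and 12.1 CPM in TAP and 827 and 744 CPM in OSC at 2.0 mm, and a difference of -6.99 ± 0.85 SE (edgeR adjusted p-value of 0.00740). For nad4, ccmC and rrn5 the TAP libraries lay below OSC at 2.0 mm and above OSC at 1.5 mm, without overlap at either length.

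rpl16, a protein of the large ribosomal subunit, went the other way. At 2.0 mm it had 64.7 and 72.7 CPM in TAP and 0.664 and 0.379 CPM in OSC, where each OSC value is 1 count. At 1.5 mm it had 355 and 395 CPM in TAP and 167 and 121 CPM in OSC. The difference between lengths was 5.32 ± 0.96 SE, with an edgeR adjusted p-value of 0.0298, and TAP was the higher at both lengths. The open reading frame orf261 had 3.39 and 1.55 CPM in TAP and 28.6 and 22.8 CPM in OSC at 2.0 mm, against 70.7 and 67.7 CPM in TAP and 6.13 and 17.8 CPM in OSC at 1.5 mm, a difference of -6.27 ± 1.13 SE (edgeR adjusted p-value of 0.0295). A plastid row named only by its locus tag, ZemaCr114, was set among the ribosomal and transfer RNA rows when shares were taken without them. It had 1.88 and 4.02 CPM in TAP and 315 and 715 CPM in OSC at 2.0 mm. At 1.5 mm it had 30.3 and 35.9 CPM in TAP and 95.7 and 85.5 CPM in OSC (difference of -6.18 ± 1.29 SE, edgeR adjusted p-value of 0.0428). Leaving out any 1 of the 4 libraries at 1.5 mm ended these calls, except that rrn5 was still called without either TAP library. After thinning to equal depth, ccmC, rpl16, orf261 and ZemaCr114 were no longer called (edgeR adjusted p-values of 0.0729, 0.0617, 0.0539 and 0.0539), and ZemaCr114 was not called with library totals either (0.0603).

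Over all mitochondrial rows the median log2 fold change of TAP over OSC was -0.20 at 2.0 mm, in 85 rows of which 6 were called higher and 9 lower, and 1.27 at 1.5 mm. Over the 15315 genes that the 2.0 mm fit shared with the fit at 1.5 mm, 3.36% were called higher and 15% lower. The median difference between lengths over the 112 rows was -1.63, against -0.14 for all genes. The mitochondrial rows called at 2.0 mm thus went in both directions. At 1.5 mm 0 rows were called, and 91 of the 112 had a positive and 21 a negative fold change. The 25 rows with an unadjusted edgeR p-value under 0.05 at 1.5 mm, a looser threshold, were all higher in TAP.

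**Figure D5:**
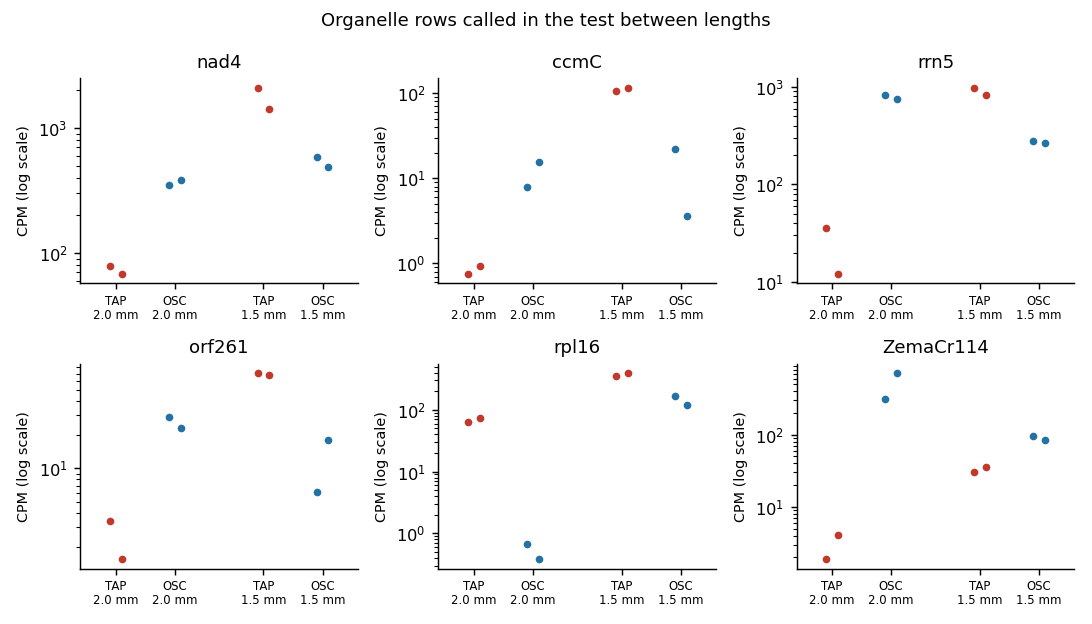
Levels in CPM (vertical log axis) of the 6 organelle rows called in the test between lengths, with one point per library for TAP (red) and OSC (blue) at 2.0 mm and 1.5 mm. For nad4, ccmC, rrn5 and orf261 the red points lie below the blue ones at 2.0 mm and above them at 1.5 mm, for rpl16 they lie above at both lengths, and for ZemaCr114 below at both.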

How the data were processed

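The deposited table gives raw counts for 46430 rows in 17 libraries, beside the length of each row's gene in bases. Reads were handled with fastp, Trim Galore and HISAT2, per the submitters' processing notes, without versions. The counting tool, the use of strand and of molecular identifiers, the genome build and the annotation are not given in the sources used here, so overlapping genes and close copies are uncertain and no coordinates are printed. Groups came from the sample titles. The 12 captured libraries were fitted together in edgeR 4.0.16 (R 4.3.3, limma 3.58.1) with TMM factors and one mean per group, and genes were kept by filterByExpr with minimum counts of 10 and 15 in total. A gene is called at a Benjamini-Hochberg adjusted p-value under 0.05, each contrast being adjusted over all genes tested. The 6 captured libraries of 2.0 mm were also fitted alone. CPM are relative to library totals. The fit was tested on simulated data.

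Names of organelle rows came from a RefSeq gene table, in which 153 of 154 microRNA rows and 0 of 44146 nuclear rows matched. The tapetum, meiocyte and epidermis lists matched 0 rows. Nuclear rows named are the 2 with the largest positive and the 2 with the largest negative fold change among called rows without overlap and with a mean of 20 counts or more in the higher group. In each organelle list the 3 members with the highest mean CPM are named, and rows called between lengths were added after their values were seen. The members and lists were chosen with earlier results of these data known. Alternatives were RLE factors, library totals, no filter, DESeq2 1.42.0, a replicate block, other sets of libraries, thinned counts, no organelle rows and each library left out. Figures and counts used Python 3.11.15, NumPy 2.4.6, pandas 2.3.3 and matplotlib 3.10.9.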

Additional observations from a re-analysis of the deposited data

Results flagged for a closer look

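The difference between TAP and OSC changed with anther length for 137 genes in the test of that change, of which 130 were nuclear, 5 mitochondrial, 1 plastid and 1 non-coding. Among the genes named above, the log2 difference at 2.0 mm minus that at 1.5 mm was 14.23 for Zm00001d028474, -4.27 for nad4, -6.82 for ccmC, -6.99 for rrn5, 5.32 for rpl16, -6.27 for orf261 and -6.18 for ZemaCr114. Each had an adjusted p-value under 0.05 in edgeR's quasi-likelihood test of the difference itself. Zm00001d028474 did not with the replicate block (0.0601), ccmC, rpl16, orf261 and ZemaCr114 did not after thinning (0.0539 to 0.0729), and ZemaCr114 did not with library totals (0.0603).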

How the results depend on the processing

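The count of 484 genes called between TAP and OSC became 1140 without the low-count filter, 1319 with DESeq2, 1560 with all 17 libraries, 2184 with the 4 libraries alone, 135 with the 6 captured libraries of 1.5 mm, 1070 after thinning to 280760 counts, and 1 to 60 with a library left out. It was 582 with RLE factors, 494 with library totals and 484 without organelle rows. The 484 genes kept their sign wherever they were tested, which was 478 genes with the 4 libraries, 483 with the 6 and all 484 otherwise. With the replicate number as a block, 428 genes were called, 410 of them among the 484; replicates with the same number did not deviate together (r = -0.02 across genes), and nothing in the labels pairs them. The 137 calls between lengths became 522 without the filter, 635 with DESeq2, 543 with all 17 libraries, 98 with the block and 0 to 15 with a library left out. The mitochondrial count of 0 became 4 without the filter, 10 with DESeq2, 12 with all 17 libraries, 25 with the 4 libraries, 7 after thinning and 1 with the block. Without ribosomal and transfer RNA rows the share of counts differed between TAP and OSC by 1.36 instead of 6.44 percentage points in mitochondrial rows and by -0.0461 instead of -0.0853 in plastid rows. Zm00001d035162 and Zm00001d028474 lost their calls with the 6 libraries of 1.5 mm (edgeR adjusted p-values of 0.0508 and 0.0839). The cause of these changes was not tested. A count of 0 allows up to 10.7 CPM in the smallest library, OSC replicate 2, for counting error alone.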
